A study of Mus musculus with 4 samples.

Results

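The genes described here encode the main components of basement membranes. They are the collagen IV chains Col4a1 and Col4a2, the laminin chains Lama5, Lamb1, Lamb2 and Lamc1, the nidogens Nid1 and Nid2, perlecan (Hspg2) and the collagen-binding glycoprotein Sparc. These 10 genes were listed by name, and all 22 probe sets annotated to 1 of them alone were taken, out of 45101 probe sets in the table and 18194 genes with a probe set of their own. RNA came from mouse embryonic fibroblasts at passage 5, which are mixed mesenchymal cells grown out of embryos. The cells were FAK +/+ (wild type) or FAK -/- (knockout) for focal adhesion kinase, a tyrosine kinase that acts below integrins. Cells of all 4 groups grew with 10% fetal bovine serum, were then kept without serum for 24 h, and spent another 24 h with endothelin-1 (ET-1, a vasoactive peptide) or without it. Each group was measured on 1 Affymetrix mouse expression array, so no difference between 2 arrays has a replicate check. The labels do not say how many embryos or cultures stand behind an array, and differences between cell lines cannot be told apart from loss of FAK.

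A basement membrane is a thin sheet of matrix on which epithelia, endothelia, muscle and other cells rest. Laminins are trimers of an α, a β and a γ chain that assemble into a network at the cell surface, collagen IV forms a second network, and nidogens and perlecan bridge them. Fibroblasts secrete several of these components, among them nidogens and collagen IV, although they mostly make interstitial matrix. Focal adhesion kinase lies below the integrins that bind laminin and collagen, and the comparisons ask how loss of FAK and exposure to ET-1 go with the expression of the sheet's components.

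Values are log2 levels after RMA, which as usually run consists of background correction, quantile normalization and median polish over the probes of each set. A gene is represented by its brightest probe set, and levels of different probe sets are not set against each other. All 10 genes, and 18 of their 22 probe sets, passed a filter that asks for at least 1 array above the median of all values (log2 8.90). The test is limma's additive model of genotype and treatment over 12290 genes. Its SE and adjusted p rest on a moderated variance. That variance combines the gene's own genotype by treatment term, the single residual degree of freedom, with a prior. The prior is estimated over all genes tested, follows intensity and weighs more, with 2.996 degrees of freedom. Neither part measures a spread between cultures.

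Fibroblast identity of the arrays was checked on 13 marker genes, of which 12 passed the filter. Their mean level was 13.49 in untreated and 13.60 in ET-1-treated wild type, and 12.18 and 11.70 in untreated and ET-1-treated knockout, with 8 lower and 1 higher in the knockout by limma, which called 13.6% of all genes tested. Mesothelial and epithelial markers went the other way, with 7 of 10 higher and 1 lower by limma and mean levels of 10.50 and 9.36 in wild type and 12.18 and 11.87 in the knockout. Cdh1 was the 1 marker of that list under the filter. Parietal endoderm, a tissue that makes much basement membrane, was represented by 4 of 7 markers past the filter. Gata4 (9.03, 8.66, 11.37 and 11.53 in wild type untreated and with ET-1, then knockout untreated and with ET-1) and Gata6 rose in the knockout. Thbd fell (8.89, 9.84, 7.42 and 7.56 in the same order), and Dab2 was not called (0.17, adjusted p = 0.525 by limma). Sox7, Sox17 and Foxa2 did not pass the filter. Of 10 endothelial markers, Pecam1, Cdh5, Tek, Tie1, Emcn and Cldn5 did not pass the filter and none of the other 4 passed limma. The mean of those 4 lay between 9.93 and 10.04 in all arrays. Of 8 mural markers 6 passed the filter and 4 of these fell in the knockout. Of 7 leukocyte markers 3 passed the filter, Ptprc not among them, with 1 higher and 1 lower. Of 6 Schwann markers 2 passed the filter, with Erbb3 higher. The part of these markers in the differences below was not tested, and in bulk RNA fewer cells of a type and less RNA per cell cannot be told apart. The array of wild type with ET-1 also stood apart in its RNA controls. Gapdh read 3.79 (log2) higher at its 3′ than at its 5′ probe set there, against 0.85 to 0.90 on the other arrays, and Actb read 1.81 higher, against 0.66 to 1.30. The values of FAK's own gene were not used here, so the genotype labels were not checked against it.

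Lama5 and Nid1 were the 2 members that passed limma for genotype, and they differed in opposite directions. That is 2 of 10 members, with 1 higher and 1 lower in the knockout, while 13.6% of all genes tested were called (6.60% higher and 7.05% lower). The members' share is near this background. The bases just before the annotated starts of both genes are shown because these are the members with a called difference. The sequences are from RefSeq (GRCm38.p6), which held 8 of the 10 members. The stretch for Lama5 is chr2:180225860-180226109 on the minus strand and that for Nid1 is chr13:13437352-13437601 on the plus strand, each 250 bases 5′ to 3′, with matches to the GC box GGGCGG on either strand in capitals.
Lama5: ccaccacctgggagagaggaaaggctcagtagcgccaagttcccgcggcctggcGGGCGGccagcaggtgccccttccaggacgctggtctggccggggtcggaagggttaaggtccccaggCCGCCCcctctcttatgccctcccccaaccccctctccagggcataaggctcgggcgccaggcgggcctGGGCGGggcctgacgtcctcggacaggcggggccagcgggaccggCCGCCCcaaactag
Nid1: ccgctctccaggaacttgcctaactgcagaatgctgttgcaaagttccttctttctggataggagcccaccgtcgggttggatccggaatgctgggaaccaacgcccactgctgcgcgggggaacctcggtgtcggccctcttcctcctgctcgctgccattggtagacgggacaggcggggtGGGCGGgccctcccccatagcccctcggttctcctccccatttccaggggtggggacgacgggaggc
The Lama5 stretch held 4 GC boxes and the Nid1 stretch held 1, and 32.7% of 32851 stretches of this length before annotated starts held at least 1. Among members without a called difference, Hspg2 held 5, Lamb1 and Col4a2 held 2 each, and Col4a1, Lamb2 and Sparc held 0. The CCAAT box, written CCAAT and sought on both strands, occurred 0 times for Lama5 and 1 time for Nid1, against 33.8% of all stretches. TATAAA occurred in neither, against 12.4%. Matches to the motifs searched did not overlap each other in these stretches, and a match describes letters only.

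**Figure D1:**
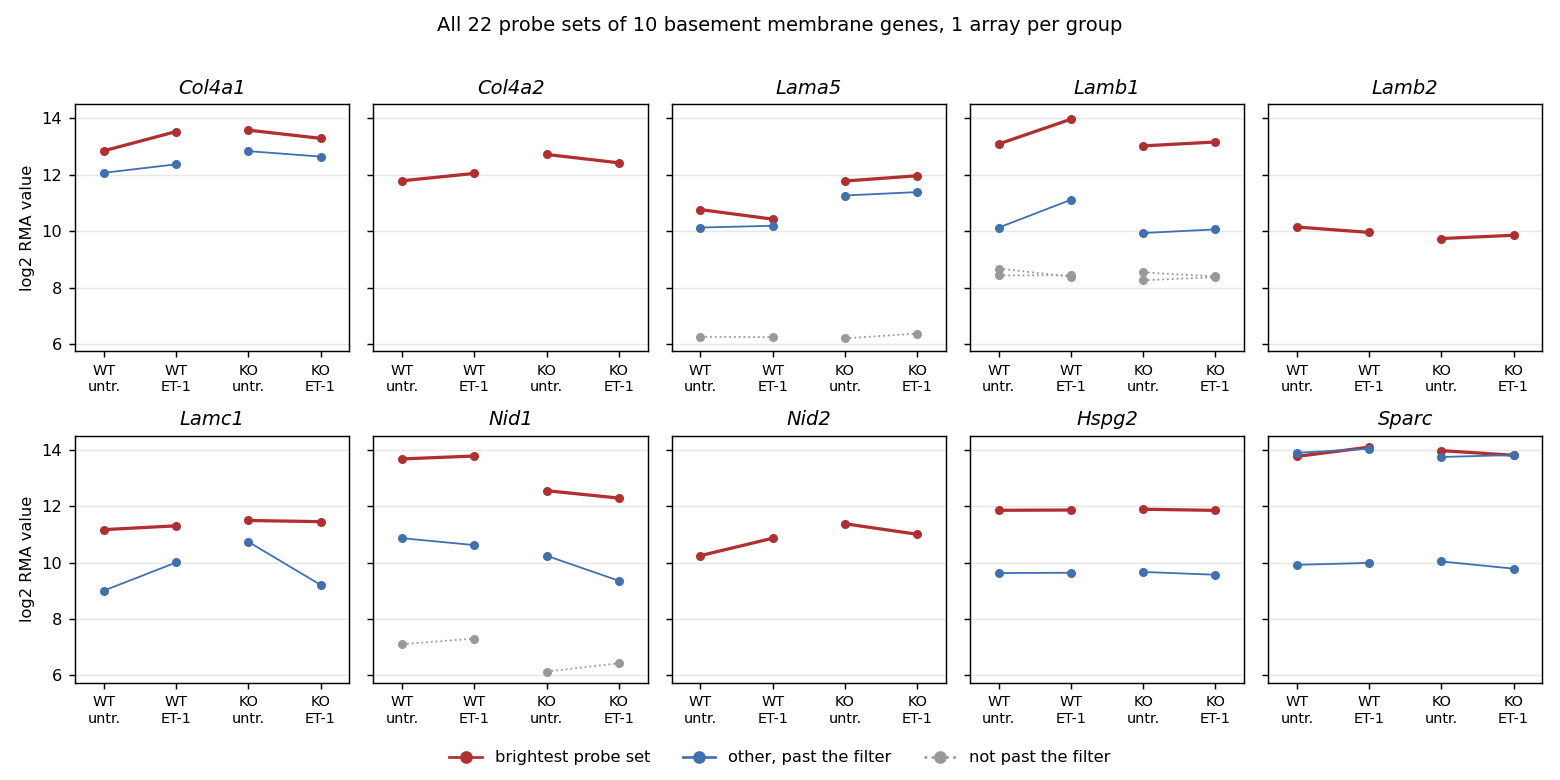
Log2 RMA level (vertical axis) of all 22 probe sets in the 4 arrays (horizontal axis, WT wild type, KO knockout, untr. untreated), 1 panel per gene; red marks the brightest probe set, blue the others past the filter, grey dotted those not past it, and lines join the arrays of a genotype. Both bright Lama5 probe sets are higher in both knockout arrays, all 3 Nid1 probe sets are lower there, and Hspg2 is nearly level.

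Among the laminin chains, Lama5 encodes the α5 chain, which pairs with β1 or β2 and with γ1 in laminins found in many epithelial and vascular basement membranes. Its brightest probe set read 10.76 in untreated and 10.42 in ET-1-treated wild type, and 11.77 in untreated and 11.96 in ET-1-treated knockout. Both knockout arrays lay above both wild-type arrays. The knockout was 2.02-fold higher untreated and 2.90-fold higher after ET-1, and by limma Lama5 rose by 1.27 ± 0.19 (log2, SE, adjusted p = 0.0291). A second bright probe set, of a type that can match transcripts of more than 1 gene, read 10.13 and 10.19 in untreated and ET-1-treated wild type and 11.26 and 11.38 in the knockout. With every probe set as its own feature (20939 tested, 8.45% called), this second one passed limma at 1.16 ± 0.13 (adjusted p = 0.0308). The brightest then missed the threshold at an adjusted p of 0.0527. The third Lama5 probe set read 6.20 to 6.37 in all arrays, below the filter. Mesothelium and epithelium are cell types that commonly make this chain. Of their 10 markers past the filter, 7 were higher in the knockout by limma and 1, Krt19, was lower (-2.98). Upk3b (4.07) and Epcam (-0.33) were not called, and Cdh1 was under the filter. The part of these markers in the Lama5 difference was not tested.

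Lamb1 encodes the β1 chain. Its brightest probe set read 13.09 in untreated wild type, 13.02 in untreated knockout and 13.16 in ET-1-treated knockout, and it was high, at 13.96, in wild type with ET-1 alone. The next probe set had the same shape, with 10.12, 9.93 and 10.06 in those arrays and 11.11 in wild type with ET-1. The genotype difference was -0.07 untreated and -0.81 after ET-1, and limma did not call it (-0.44 ± 0.23, adjusted p = 0.297). The other 2 probe sets of Lamb1 read 8.26 to 8.67, under the filter, and did not show this high value. The brightest Lamb1 probe set, like the second of Lama5, is of a type that can match transcripts of more than 1 gene. The high array is the array with the large Gapdh 3′ to 5′ gap, and the part of that gap was not tested.

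Lamb2, the β2 chain, read 10.14 and 9.95 in untreated and ET-1-treated wild type and 9.74 and 9.85 in the knockout. Its genotype difference was -0.25 ± 0.12 (adjusted p = 0.262 by limma). Lamc1 encodes the γ1 chain, which most laminins share. Its brightest probe set read 11.17 and 11.30 in wild type and 11.49 and 11.45 in the knockout, a limma difference of 0.24 ± 0.15 (adjusted p = 0.398). A dimmer Lamc1 probe set varied far more, with 9.01 and 10.00 in untreated and ET-1-treated wild type against 10.73 and 9.21 in the knockout. It was 1.73 (log2) higher in the knockout untreated and 0.79 lower after ET-1, and limma gave 0.47 ± 0.67 (adjusted p = 0.728) for it. The probe sets of Lamc1 therefore disagreed on the size of both comparisons, and after ET-1 on the sign of the genotype difference.

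The nidogens bind the laminin γ1 chain and collagen IV. Nid1 encodes nidogen-1. It read 13.67 in untreated and 13.78 in ET-1-treated wild type, and 12.55 in untreated and 12.29 in ET-1-treated knockout, so both knockout arrays were below both wild-type arrays. Untreated knockout was 2.18-fold lower and ET-1-treated knockout 2.81-fold lower than its wild-type counterpart, and by limma Nid1 fell by 1.31 ± 0.17 (log2, SE, adjusted p = 0.0205). The second Nid1 probe set read 10.86 and 10.62 in wild type and 10.24 and 9.35 in the knockout, and did not pass limma over probe sets (-0.94 ± 0.20, adjusted p = 0.0848). The third was under the filter in every array, at 7.11 and 7.31 in wild type and 6.14 and 6.43 in the knockout. All 3 were lower in the knockout in both treatment states. Fibroblast markers were lower there too, 8 of 12 by limma with the mean levels given above, and their part in the Nid1 difference was not tested. Without the array of wild type with ET-1, the untreated pair alone gives -1.13 for Nid1 and 1.01 for Lama5.

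Nid2, which encodes the related nidogen-2, did not share that pattern. Its single probe set read 10.25 in untreated wild type, the lowest of its 4 values, 10.86 in ET-1-treated wild type, 11.38 in untreated knockout and 11.00 in ET-1-treated knockout. In untreated cells the knockout was 2.19-fold higher, while after ET-1 it was 1.10-fold higher. Limma did not call the genotype difference (0.64 ± 0.28, adjusted p = 0.229). By the brightest probe sets the untreated difference was thus -1.13 for Nid1 and 1.13 for Nid2 on the log2 scale, and after ET-1 it was -1.49 and 0.14. The second Nid1 probe set gave -0.62 untreated and -1.26 after ET-1.

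Collagen IV is secreted as a trimer, and Col4a1 and Col4a2 encode the chains of its most widespread form, with 2 copies of the first and 1 of the second. The genes lie head to head. In the RefSeq models of GRCm38.p6 their annotated starts are 21 bases apart on opposite strands. The annotated transcripts overlap there. Letters from this region are shown because both genes start in it and had their lowest value in the same array. A stretch of 30 bases that holds the start of Col4a2 is chr8:11312782-11312811 on the plus strand, with a match to the CT-rich motif CCCTCCCC, sought on both strands, in capitals. The Col4a1 start, at 11312826, is outside these 30 bases. They lie after it in the direction of Col4a1 transcription, so the joint label names the region only.
Col4a1 and Col4a2: tggcgctgccCCCTCCCCtcggcagtgcgc
The 250 bases before the Col4a2 start held that motif 1 time, as did those of Lama5 and Nid1, against 9.69% of all such stretches. Those before the starts of Col4a1, Hspg2, Lamb1, Lamb2 and Sparc held it 0 times.

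The brightest Col4a1 probe set read 12.85 in untreated and 13.53 in ET-1-treated wild type, and 13.58 in untreated and 13.29 in ET-1-treated knockout. Untreated wild type was the lowest of the 4 arrays. Col4a2 had the same lowest array, with 11.78 and 12.04 in wild type and 12.72 and 12.42 in the knockout. In untreated cells the knockout was 1.66-fold higher for Col4a1 and 1.91-fold higher for Col4a2, both short of 2-fold. After ET-1 Col4a2 was 1.30-fold higher and Col4a1 was 1.18-fold lower by this probe set, whereas the second Col4a1 probe set was higher by 0.27 (log2). Limma called neither chain, at 0.25 ± 0.28 (adjusted p = 0.634) for Col4a1 and 0.65 ± 0.21 (adjusted p = 0.142) for Col4a2. The second Col4a1 probe set read 12.07, 12.37, 12.83 and 12.64 in wild type untreated and with ET-1, then knockout untreated and with ET-1. Its profile, centred on its own mean, differed from that of Col4a2 by a root mean square of 0.078, and from that of the brightest Col4a1 probe set by 0.196 (log2, 4 arrays). This is a description over 4 points.

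Hspg2 encodes perlecan, a large heparan sulfate proteoglycan that holds growth factors in the sheet. It varied least, reading 11.85, 11.86, 11.89 and 11.85 in wild type untreated and with ET-1, then knockout untreated and with ET-1. Its whole range was 0.04 on the log2 scale, and that of its second probe set was 0.10. The limma difference was 0.01 ± 0.16 (adjusted p = 0.975). Sparc, which binds collagen IV and other collagens and is made in quantity by fibroblasts, read 13.76 and 14.09 in wild type and 13.97 and 13.80 in the knockout. Its limma difference was -0.04 ± 0.16 (adjusted p = 0.908). All 3 Sparc probe sets were lower in the knockout after ET-1, by 0.20 to 0.29, and untreated they differed in sign, from -0.15 to 0.21. A p above the threshold does not show that these levels were equal.

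**Figure D2:**
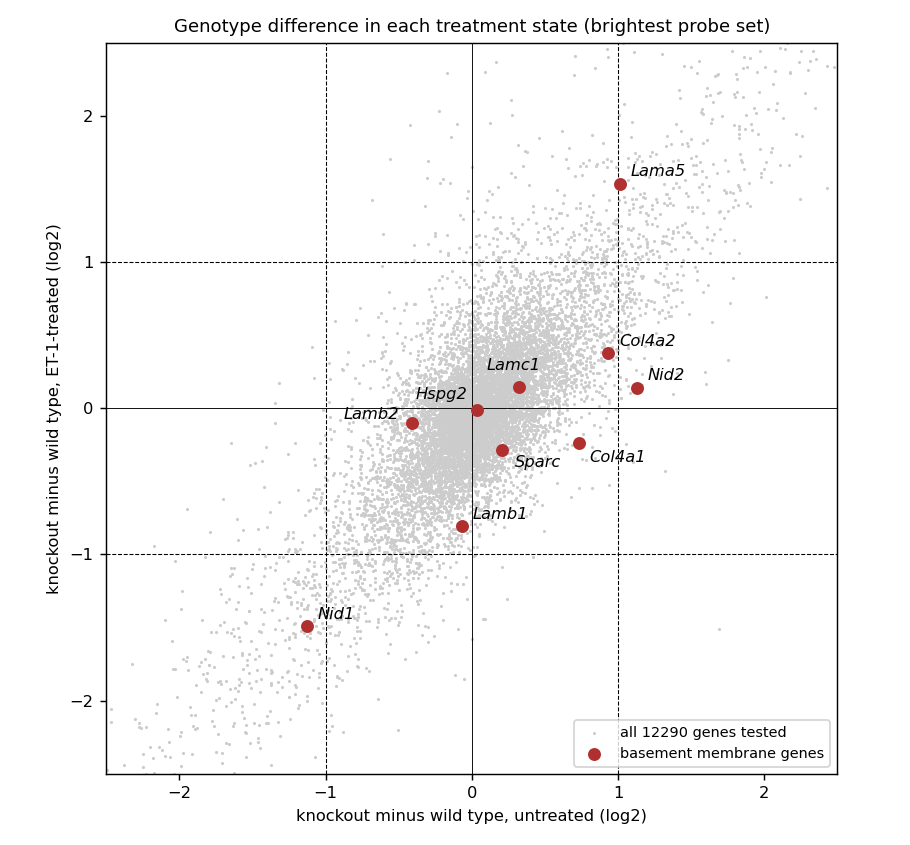
Knockout minus wild type in untreated cells (horizontal axis, log2) and after ET-1 (vertical axis, log2) for the brightest probe set of each gene; red points are the 10 basement membrane genes, grey points all 12290 genes tested within the plotted range, and dashed lines mark 2-fold. Lama5 (1.01 and 1.54) and Nid1 (-1.13 and -1.49) lie past 2-fold on both axes, and Nid2 (1.13 and 0.14) on the horizontal axis alone.

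By counts, 3 of 10 members differed by 2-fold or more between genotypes in untreated cells, namely Lama5 and Nid2 higher and Nid1 lower, against 9.37% of all genes (4.78% higher and 4.59% lower). Lama5 lay just past that mark, at 1.01, and was at 0.96 with quantile normalization. After ET-1 these were Lama5 higher and Nid1 lower, 2 of 10 against 12.1% (5.61% higher and 6.53% lower). At 1.5-fold Col4a1 and Col4a2 joined them untreated, 5 of 10 against 20.0%, and Lamb1 after ET-1, 3 of 10 against 25.2%. The median over the members was 0.26 untreated and -0.06 after ET-1, and over all genes tested 0.02 and -0.03. The median absolute difference untreated was 0.57 for the members and 0.22 for all genes, and after ET-1 it was 0.26 and 0.27. Lama5 and Nid1 were past 2-fold in the same direction in both states, as were 7.48% of all genes. With the mean of all their probe sets, those under the filter included, the untreated differences were 0.70 and -0.91, short of 2-fold. With every probe set as a feature, 4 members were past 2-fold untreated and 3 after ET-1. Lamc1 was added untreated by its dimmer probe set (1.73) and Lamb1 after ET-1 by its second (-1.05). No share over all probe sets is given for these counts.

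ET-1 went with smaller differences. No member passed limma for ET-1 over both genotypes, nor did any of the 12290 genes (0% called). The fit gave an unadjusted p under 0.05 for 0 of 10 members and 643 genes (5.23%). The member with the lowest p was Lamb1, at 0.51 ± 0.23 (log2, SE, adjusted p = 0.780 by limma), a value that rests on wild type with ET-1. Without that array the knockout alone gives 0.14 for it.

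In wild type 0 of 10 members differed by 2-fold or more after ET-1, against 1.95% of all genes. Those at 1.5-fold or more were Lamb1 (1.84-fold), Col4a1 (1.60-fold) and Nid2 (1.53-fold), all higher after ET-1, 3 of 10 against 6.51% of all genes. Col4a1 was short of 1.5-fold by its second probe set (0.30 on the log2 scale), by the mean of both (0.49) and with quantile normalization (0.55), and Lamb1 by the mean of its 4 probe sets (0.40), 2 of them under the filter. Sparc was higher by 0.33 and Col4a2 by 0.26 on the log2 scale, and Lama5 was lower by 0.34. The second probe set of Lama5 was higher by 0.06, so its probe sets differed in sign here. In all, 8 of 10 members read above 0, against 56.9% of all genes, and the median was 0.20 against 0.05. All of these differences use the array with the large Gapdh gap. The 2 wild-type arrays also differed in mesothelial and epithelial markers. Of 10 past the filter, 4 were lower by 2-fold or more with ET-1 and 0 were higher. Among them Upk3b read 12.39 and 8.88 and Krt18 10.55 and 7.48 in untreated and ET-1-treated wild type. The part of the gap and of these markers was not tested.

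In the knockout the ET-1 differences of the members were small. None reached 1.5-fold by the brightest probe set, against 2.33% of all genes at that size and 0.513% at 2-fold. They ran from -0.37 for Nid2 to 0.19 for Lama5. Of the 10 members 7 were below 0, as were 6791 of the 12290 genes tested. The members' median was -0.10, against -0.02 over all genes. The ET-1 difference was above 0 in wild type and below 0 in the knockout for 7 of 10 members (Nid1 and Hspg2 among them, whose wild-type values turned negative with quantile normalization), against 27.8% of all genes, and the reverse held for 2 (Lama5 and Lamb2), against 15.6%. Col4a1 and Col4a2 were lower by 0.29 and 0.30. The dimmer Lamc1 probe set was lower by 1.53 (log2), 1 of 18 member probe sets past 2-fold, against 0.735% of probe sets tested. The brightest Lamc1 probe set differed by -0.04. The second Nid1 probe set was lower by 0.89 and the brightest by 0.26.

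**Figure D3:**
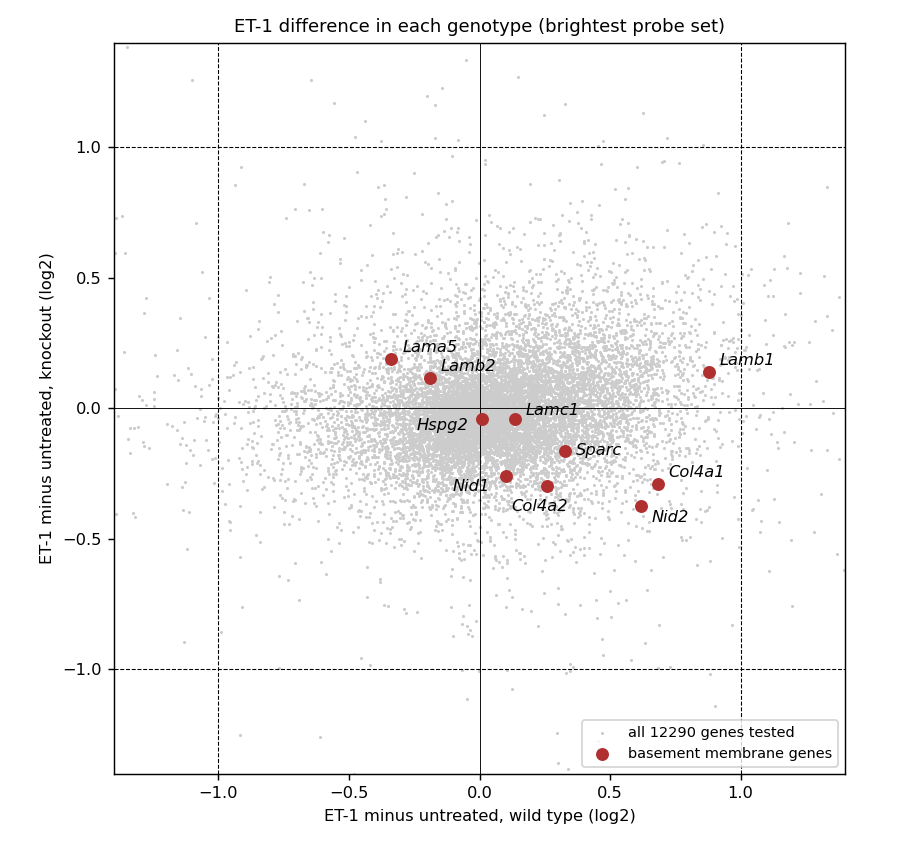
ET-1 minus untreated in wild type (horizontal axis, log2) and in the knockout (vertical axis, log2) for the brightest probe set of each gene; red points are the 10 basement membrane genes, grey points all 12290 genes tested within the plotted range, and dashed lines mark 2-fold. No red point reaches a dashed line, and 7 of 10 lie to the right of 0 and below 0, of which Nid1 and Hspg2 moved left of 0 with quantile normalization.

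The difference between the ET-1 differences, wild type minus knockout, was 0.99 for Nid2, 0.97 for Col4a1 and 0.74 for Lamb1 on the log2 scale, just short of 2-fold for Nid2 and Col4a1. At 2-fold there were 0 of 10 members and 2.90% of all genes, and at 1.5-fold these 3 members, against 7.37% of all genes in that direction. The second Col4a1 probe set gave 0.49, and the second Lamb1 probe set 0.86. The dimmer Lamc1 probe set gave 2.52, 1 of 18 member probe sets past 2-fold against 4.42% of probe sets tested, and the brighter 0.18. After the median of each array was subtracted, Nid2 was at 1.04 and Col4a1 at 1.03, past 2-fold. This term is the residual of the model, so no test of it is possible with 4 arrays.

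Other basement membrane genes were taken from a list of 24, of which 23 had a probe set and 12 passed the filter. By limma 3 of the 12 rose in the knockout and 1 fell, against 6.60% and 7.05% of all genes, and the median difference was 0.09, against -0.005 over all genes tested. Fras1, which encodes an extracellular protein that anchors epithelial sheets, read 9.23 and 8.79 in untreated and ET-1-treated wild type and 11.62 and 11.70 in the knockout. It rose by 2.64 ± 0.17 (adjusted p = 0.00657 by limma). Col4a6, a collagen IV chain of restricted distribution, read 9.67 and 9.06 in wild type and 11.04 and 10.87 in the knockout, and rose by 1.58 ± 0.15. Agrin (Agrn), a heparan sulfate proteoglycan like perlecan, read 10.78 and 11.27 in wild type and 12.19 and 12.13 in the knockout, and rose by 1.14 ± 0.21. Col18a1, whose product gives rise to endostatin, read 11.16 and 11.57 in wild type and 10.38 and 10.37 in the knockout, and fell by 0.99 ± 0.16. Lama1, Lama2, Lama3 and Lama4, the other laminin α chains, were all under the filter, so of the α chains Lama5 alone was measured above it. Of the 7 relatives of Sparc, 5 passed the filter, and 1 was called, against 13.6% of all genes. Fstl1 fell by 0.92 ± 0.15 (13.88 and 14.19 in wild type, 13.12 and 13.11 in the knockout).

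Receptors of the sheet were taken from a list of 14, of which 13 passed the filter, with 1 higher and 1 lower by limma, a share near the 13.6% of all genes called, and a median of 0.16. Bcam, a cell surface glycoprotein that binds the laminin α5 chain, read 9.34 and 9.26 in wild type and 11.09 and 10.88 in the knockout, and rose by 1.69 ± 0.10 (adjusted p = 0.00644). Ddr2, a collagen receptor tyrosine kinase, read 12.92 and 13.23 in wild type and 11.13 and 11.47 in the knockout, and fell by 1.78 ± 0.16 (adjusted p = 0.0109). The heparan sulfate proteoglycan Sdc4 was at 1.04 ± 0.23 (adjusted p = 0.0628) and the collagen-binding integrin chain Itga1 at -0.91 ± 0.34, neither of them called.

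Of 16 genes that fold, modify or crosslink collagen IV and other collagens, 15 passed the filter and had a median difference of -0.28. The 1 call, against 13.6% of all genes, was Tgm2, a transglutaminase that crosslinks matrix proteins, which read 12.51 and 12.82 in wild type and 14.35 and 14.31 in the knockout and rose by 1.66 ± 0.15. The glycosyltransferase Colgalt1 and the lysyl hydroxylase Plod2 differed between genotypes by -1.06 and 1.001 (log2) after ET-1, past 2-fold, and did not pass limma over both states (-0.84 and 0.77).

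Of 13 genes of matrix turnover 12 passed the filter, with 1 higher and 2 lower by limma, against 6.60% and 7.05% of all genes, and a median of -0.32. The plasminogen activator Plat rose by 0.96 ± 0.13, the gelatinase Mmp2, which degrades collagen IV, fell by 1.23 ± 0.17, and the inhibitor Timp1 fell by 1.39 ± 0.21. Mmp2 read 12.26 and 12.82 in wild type and 10.91 and 11.71 in the knockout, with both wild-type arrays above both knockout arrays. Timp3, an inhibitor held in the matrix, was at -0.88 ± 0.22 (adjusted p = 0.0836) and was not called.

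**Figure D4:**
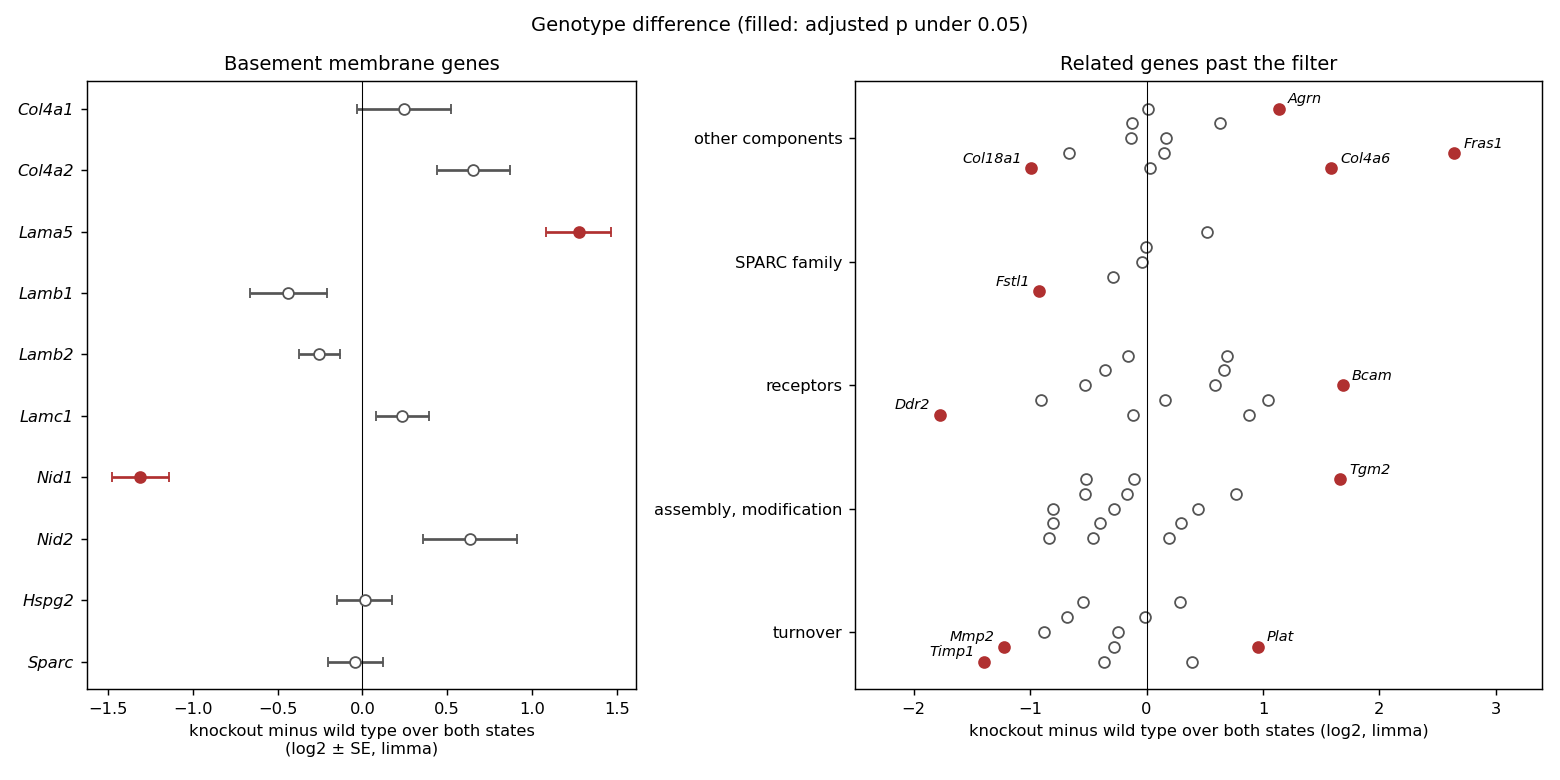
Left, knockout minus wild type over both treatment states (horizontal axis, log2, limma estimate with bars of 1 SE) for the 10 basement membrane genes; right, the same estimate without bars for related genes past the filter, by list, with the called genes named. Filled red points have an adjusted p under 0.05: Lama5 (1.27) and Nid1 (-1.31) on the left, and Fras1 (2.64) and Ddr2 (-1.78) at the extremes on the right.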

How the data were processed

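The deposited table holds log2 signals of 45101 probe sets on 4 arrays. The submitters' processing notes name RMA, whose version is not given in the sources used here. Values run from 5.00 to 15.24, and array medians from 8.89 to 8.92. Names came from GEO's annotation of the platform, which paired 34958 probe sets with 1 gene. All 22 member probe sets matched RefSeq by Entrez identifier. Each of the 18194 genes was represented by its brightest probe set, and 12290 passed the filter. Genotype and treatment entered limma 3.58.1 (R 4.3.3; lmFit, then eBayes with trend) as additive terms over all 4 arrays, with Benjamini-Hochberg adjustment at 0.05. The prior adds 2.996 degrees of freedom to the residual 1. On simulated data for the genotype comparison (12290 genes) the fit recovered 92% of 100 genes changed 8-fold and 22% of 100 changed 2-fold, with 9 unchanged genes called. The simulated noise was independent between arrays, the changes were all upward, and no treatment or genotype by treatment difference was put in. A far larger share of genes was called in the real data, so these rates need not hold there. Single differences have no test. The arrays' number limits every precision. Members and gene lists were chosen with earlier results of these data known. Of related lists, up to 4 genes called or past 2-fold were named, by size. For each member with a range of 1 or more (log2), the 3 genes nearest in centred profile were sought. Alternatives covered the probe set rule, filter, normalization, variance model and fold. Python 3.11.15, numpy 2.4.6, pandas 2.3.3 and matplotlib 3.10.9 were used.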

Additional observations from a re-analysis of the deposited data

Results flagged for a closer look

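By the brightest probe set, 9 of the 10 genes differed in opposite directions after ET-1 in the 2 genotypes, each measured on 1 array per state, and these differences were not tested. The direction was up in wild type and down in the knockout for 7 genes, against 27.8% of all genes tested. The log2 differences in wild type and in the knockout were 0.68 and -0.29 for Col4a1, 0.26 and -0.30 for Col4a2, 0.62 and -0.37 for Nid2 and 0.33 and -0.16 for Sparc. They were smaller for Lamc1 (0.14 and -0.0416), Nid1 (0.10 and -0.26) and Hspg2 (0.0089 and -0.0405), and with quantile normalization the wild-type values of Nid1 and Hspg2 were -0.03 and -0.06. For Sparc, the other probe set of like brightness did not go opposite ways (0.15 and 0.07), whereas the dimmest did (0.07 and -0.25). The other probe sets past the filter did not go opposite ways for Nid1 (-0.24 and -0.89) and Lama5 (0.06 and 0.12). The opposite order was seen for Lama5 (-0.34 and 0.19) and Lamb2 (-0.19 and 0.12), against 15.6% of all genes. For 3 genes the genotype difference also changed sign between untreated and ET-1-treated cells. It was 0.73 and -0.24 for Col4a1, 0.21 and -0.29 for Sparc and 0.037 and -0.0124 for Hspg2. The share of all genes with such a change of sign was not counted, so 3 of 10 has no background here. Over all genes tested the median genotype difference was near 0 in both states (0.02 and -0.03). With quantile normalization Hspg2 read -0.03 untreated and kept 1 sign. The second probe sets of Col4a1 (0.77 and 0.27) and Sparc (-0.15 and -0.22) did not change sign, and the third Sparc probe set did (0.12 and -0.20). The array with the large Gapdh gap enters every one of these pairs. That array also had the lowest mean level of mesothelial and epithelial markers (9.36). The part of either was not tested.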

How the results depend on the processing

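Limma called 2 members for genotype and 0 for ET-1 under all 8 alternatives of probe set rule, filter, normalization and variance model. With every probe set as a feature the 2 were the second Lama5 probe set and the brightest of Nid1. Over the 7 that keep 1 value per gene, Lama5 lay between 0.83 and 1.28 (adjusted p from 0.00398 to 0.0461) and Nid1 between -1.33 and -1.06 (adjusted p from 0.00474 to 0.0307). Without the array of wild type with ET-1 the untreated arrays give 1.01 and -1.13, with no test. Counts of members past 2-fold moved by over 1.5 times in some settings. At 1.5-fold they were 5 for genotype untreated, 3 for ET-1 in wild type and 3 for the difference between ET-1 differences. With the mean of all probe sets there was 1 for genotype after ET-1, where Lama5 gave 0.95, and 1 for the difference between ET-1 differences. With every probe set as a feature there was 1 for ET-1 in the knockout and 1 for that difference, both Lamc1. That difference counted 2 members with array medians subtracted and 1 with quantile normalization. Under quantile normalization the untreated Lama5 difference was 0.96, below 2-fold. No called value reversed. No paired analysis was possible because each group has 1 array. Signal over background limits the dim probe sets, for which no detection calls were used here.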

Other observations

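The genes nearest to 3 members in their centred profile over the 4 arrays were sought among all genes tested, as a description over 4 points with no test. For Lama5 these were Msrb2, Bckdha and Mmp17, at root mean square distances of 0.035 to 0.046 (log2). For Nid1 they were Kitl, Trim16 and Lmod1, at 0.041 to 0.042. For Nid2 they were Atf3, Zfp566 and Kbtbd8, at 0.023 to 0.042, and Atf3, a stress-responsive transcription factor, read 10.66 and 11.22 in untreated and ET-1-treated wild type and 11.73 and 11.37 in the knockout.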
